A study of Rattus norvegicus with 9 samples.

Results

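The comparison described here set RBL-2H3 cells that were sensitized, pretreated with PF and stimulated with antigen against control cells of the same line. RBL-2H3 is a rat basophilic leukemia line that carries the high affinity IgE receptor and is widely used as a model of mast cells. The members were the 3 samples titled PF1 (here PF) and the 3 titled Ctrl, 6 of the 9 samples in the series. The other 3, titled IgE/DNP (here DNP), received the same sensitization and antigen without PF and were used to say which genes belong to the antigen response and how PF differed from antigen alone. By the labels, the PF and DNP cells had 12 h of sensitization (anti-DNP IgE, 50 ng/mL) before the antigen DNP-HSA was added at 100 ng/mL, and the PF cells had 1 h of PF in between. The DNP samples and PF replicate 1 are given 4 h of stimulation, whereas PF replicates 2 and 3 are given 5 h and 6 h in the field for each sample and 4 h in the shared protocol. The Ctrl cells are called untreated in one field while the shared protocol gives them the sensitization and antigen too, so whether they received IgE is not settled. The labels do not say what PF stands for, its dose or its solvent, the study's text does not describe this group, and there is no group that received PF without antigen. All samples are thus of 1 transformed line, although the labels list the tissue as peripheral blood.

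A mast cell is armed when IgE occupies its high affinity receptor, built from the chains encoded by Fcer1a, Ms4a2 and Fcer1g. Antigen that crosslinks the bound IgE starts a kinase cascade through Syk and Lat, calcium entry and MAP kinase activity, which release stored granules and switch on transcription. Immediate early genes such as Fos and Egr1 respond without new protein synthesis, cytokine and chemokine genes follow, and phosphatases and SOCS proteins induced in the same wave act as brakes.

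RNA abundance was deposited as normalized values, taken here to be FPKM, which scales the fragments assigned to a gene to its length and to the total mapped. Of 38490 gene rows 18006 had values, and these summed to between 580702 and 591539 FPKM in Ctrl and between 610206 and 630069 FPKM in PF. Reads per sample are unknown, and relative depth, estimated from the steps between low values in 7 genes, ran from 0.984 to 1.02 over the 9 samples. Each of the 9 samples was closest to another of its own group, which does not show whether a library was unusual within its group. The 10 mast cell markers examined, among them Fcer1a, Kit, Hdc and Cpa3, were all present, with summed levels of 5497 to 5673 FPKM in Ctrl and 5654 to 5850 FPKM in PF. The largest part came from Srgn, at 2827, 2688 and 2826 FPKM in Ctrl and 2921, 3004 and 2817 FPKM in PF. Single markers went both ways. Gata2 was at 386, 396 and 390 FPKM in Ctrl and 293, 295 and 295 FPKM in PF, whereas Fcer1g was at 702, 729 and 717 FPKM and 824, 813 and 786 FPKM. Of 38 markers of other cell types, 27 were measured, 8 had a mean of at least 1 FPKM, and the eosinophil peroxidase gene Epx was listed at 0 in all 6 samples. Their summed levels were 832 to 919 FPKM in Ctrl and 879 to 1006 FPKM in PF, most of it from Pf4, the platelet factor 4 gene. In RNA from whole cultures, fewer cells expressing a gene and less RNA per cell cannot be told apart.

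Genes were tested with limma on log2(FPKM + 1), which understates the change of low genes, where at least 1 FPKM was reached in at least 3 of the 6 samples. A gene that passed this filter through only PF or only Ctrl samples could only be called higher in that group. Such genes include Klf2, Egr2 and Hist1h2aa for PF, and Hbegf, Tnfsf9, Arid5a and Slc26a11 for Ctrl. Changes are given as log2 fold changes with their standard errors (SE), and a gene is said to have risen or fallen, or to be higher or lower, where its Benjamini-Hochberg adjusted p was at most 0.05. Nothing in the labels says that replicates were separate cultures, so p-values measure only the spread between these samples. A two-sided exact permutation test of 3 samples against 3 cannot give a p below 0.1.

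PF-pretreated, antigen-stimulated cells differed from Ctrl cells in a large share of the genes they express, and the strong changes were mostly downward. Of 10361 genes tested, 2389 were higher in PF (23.1%) and 3586 were lower (34.6%). Only 58 rose by at least 1 on the log2 scale (0.56%), whereas 291 fell by at least 1 (2.81%). The stronger rises were led by immediate early transcription factors and by histone genes, which were grouped by symbol after their values were seen. The stronger falls took in NF-kB, SOCS, cytokine receptor and interferon response genes. Groups did not overlap in 2753 genes with PF above Ctrl (26.6%) and 3961 with PF below (38.2%). Most changes were small, with 5626 of the called genes below 1 in absolute log2 fold change. Of the called genes 40% were higher as deposited, 51.1% with scaling by median ratios (3142 higher, 3012 lower) and 26.7% when every library was brought to the mean deposited total, here called scaling to equal sums (1575 higher, 4316 lower). The median change over the tested genes, on the log2 scale, was -0.05 as deposited, 0.01 with median ratios and -0.12 with the sums.

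**Figure D1:**
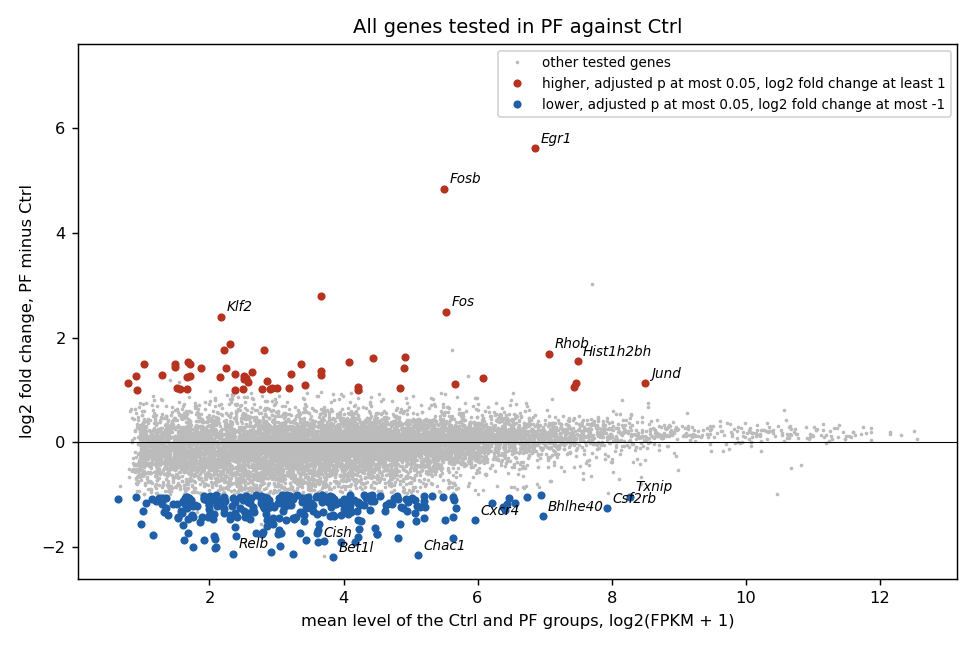
Each point is 1 of the 10361 genes tested in PF against Ctrl, with the mean level of both groups as log2(FPKM + 1) on the horizontal axis and the log2 fold change, PF minus Ctrl, on the vertical axis. Red points are the 58 genes that rose and blue points the 291 genes that fell by at least 1, and Egr1 at 5.61 and Fosb at 4.84 lie far above all others.

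Promoter windows are shown for 7 genes that stand for the patterns described next, namely Jund, Dusp1 and Tnf, which rose in PF, Hist1h2bh of the histone group, Bet1l with the lowest log2 fold change, and Plau and Il4 of the antigen response. They come from RefSeq promoters on build GRCr8, run 5′ to 3′ on the strand of the gene, and are 130-base stretches of windows that reach from 250 bases before a gene's start. Capitals mark every match, on either strand, to TATAAA, TGACGTCA (the CRE), TGANTCA (the AP-1 site), CCAAT or GGGCGG (the GC box), so that CCGCCC and ATTGG are matches on the other strand. The stretches lie at chr16:18769772-18769901 (minus strand) for Jund, chr10:17184723-17184852 (plus) for Dusp1, chr20:3626555-3626684 (plus) for Tnf, chr17:41869342-41869471 (minus) for Hist1h2bh, chr1:205364707-205364836 (minus) for Bet1l, chr15:3511988-3512117 (minus) for Plau and chr10:38277550-38277679 (minus) for Il4.
Jund: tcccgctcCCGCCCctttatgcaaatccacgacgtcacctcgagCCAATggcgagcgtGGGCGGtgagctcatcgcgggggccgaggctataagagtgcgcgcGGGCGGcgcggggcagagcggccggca
Dusp1: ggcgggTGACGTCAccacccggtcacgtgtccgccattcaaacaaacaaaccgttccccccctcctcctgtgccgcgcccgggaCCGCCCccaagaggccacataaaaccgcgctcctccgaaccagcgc
Tnf: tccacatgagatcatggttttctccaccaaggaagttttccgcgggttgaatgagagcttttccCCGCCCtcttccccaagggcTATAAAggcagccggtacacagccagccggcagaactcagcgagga
Hist1h2bh: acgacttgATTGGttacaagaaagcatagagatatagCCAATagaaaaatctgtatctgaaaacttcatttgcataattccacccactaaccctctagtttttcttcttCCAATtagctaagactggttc
Bet1l: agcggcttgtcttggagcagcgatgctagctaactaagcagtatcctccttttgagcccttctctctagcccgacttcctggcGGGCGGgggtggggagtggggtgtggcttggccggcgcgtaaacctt
Plau: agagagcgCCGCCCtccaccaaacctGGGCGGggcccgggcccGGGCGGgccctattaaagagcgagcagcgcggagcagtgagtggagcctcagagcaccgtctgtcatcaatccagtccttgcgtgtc
Il4: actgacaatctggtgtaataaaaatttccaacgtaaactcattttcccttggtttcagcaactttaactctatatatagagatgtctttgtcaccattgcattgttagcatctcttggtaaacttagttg

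Matches were counted over whole windows, of which the RefSeq table held 33469. Windows were found for 8267 of the 10361 tested genes (9233 windows), for 40 of the 58 genes that rose by at least 1 (40 windows) and for 229 of the 291 that fell by at least 1 (261 windows). CCAAT was in 52.5% of the windows of the risen genes, 37.9% of those of the fallen genes, 36.5% of those of tested genes and 34% of all windows. TATAAA was in 20% (8 windows), 11.1%, 6.57% and 12.9%. The GC box was in 45%, 46.7%, 57.3% and 30.5%, and TGACGTCA in 5%, 4.98%, 3.03% and 1.59%. TGANTCA was in 2.5% of the windows of the risen genes (1 window), 8.43% of those of the fallen genes, 4.33% of those of tested genes and 6.34% of all windows. In the stretches printed, Dusp1 carried TGACGTCA, Tnf carried TATAAA, Hist1h2bh carried CCAAT on both strands, and Il4 held none of the 5 motifs. A match describes letters only and is not a bound site.

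To ask what of the antigen response remained, the 29 genes higher in DNP than in Ctrl by at least 1 (0.279% of 10392 tested) were followed in PF against Ctrl. Of these, 27 were tested, 18 were still above Ctrl (10 of them by at least 1), 6 did not pass the test and 3 were below Ctrl. Over all tested genes 23.1% were higher and 34.6% lower. Both comparisons use the same Ctrl samples, so these counts are a description. The share of the mean antigen rise that was left in PF, in FPKM, had a median of 15.7% over the 29 genes. It was 43.4% over the 18 that stayed above Ctrl, 5.78% over the 6 that did not pass and -19.8% over the 3 below Ctrl. Tested directly against DNP, 23 of the 29 were lower in PF and 4 were higher (18.1% and 30.7% of all 10329 genes tested there were higher and lower). The 29 were picked for being high in these same DNP samples, which favours lower calls in PF. Their counts are thus a description and not comparable with the shares over all genes. Fosb, Egr1, Fos and Dnaaf2 were the 4 that were higher. The 2 genes without a test against Ctrl were Nr4a3, an orphan nuclear receptor gene, at 0.66, 0.67 and 0.65 FPKM in PF against 0.16, 0.12 and 0.22 FPKM in Ctrl, and Emp1, at 0.70, 0.40 and 0.71 against 0.36, 0.38 and 0.74 FPKM.

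**Figure D2:**
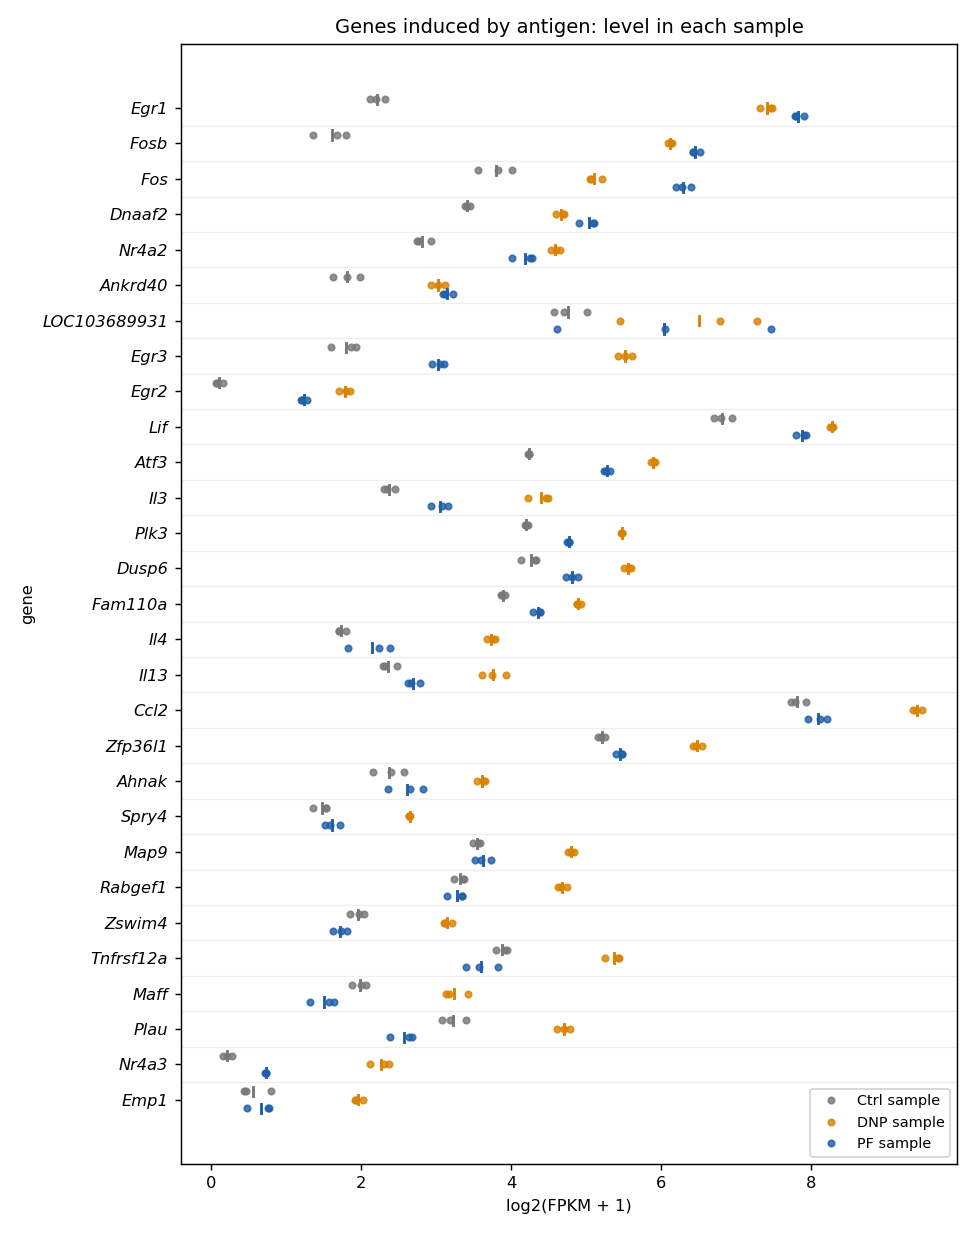
The level of the 29 antigen-induced genes is plotted for each sample as log2(FPKM + 1) on the horizontal axis, with Ctrl in grey, DNP in orange, PF in blue, 1 point per sample and a bar at each group mean. Genes are ordered by their log2 fold change in PF against Ctrl, from Egr1 at 5.61 down to Plau at -0.66, with the untested Nr4a3 and Emp1 last; the PF points lie beyond DNP for Egr1, Fosb, Fos and Dnaaf2 and fall back to or past Ctrl in the lower rows.

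In 5 of the 27 tested genes the PF mean was above the DNP mean, and 3 of them, Egr1, Fosb and Fos, encode transcription factors. Egr1 (gene 24330), a zinc finger transcription factor, was at 3.59, 4.0 and 3.35 FPKM in Ctrl, 158, 176 and 174 FPKM in DNP and 219, 221 and 238 FPKM in PF. Every PF sample was above every DNP sample, and the PF mean of 226 ± 10.7 FPKM (SD, n = 3) was 61.9 times the Ctrl mean of 3.65 ± 0.329 FPKM (SD, n = 3). Egr1 was higher in PF than in Ctrl (log2 fold change 5.61, SE 0.0612, adjusted p = 5.33e-10) and than in DNP (log2 fold change 0.41, adjusted p = 1.79e-04). Fosb (gene 100360880), an AP-1 subunit, was at 2.21, 2.49 and 1.57 FPKM in Ctrl, 67.2, 68.8 and 69.8 FPKM in DNP and 84.9, 90.2 and 85 FPKM in PF. The 3 groups did not overlap and PF was again the highest. It was higher in PF than in Ctrl (log2 fold change 4.84, SE 0.103, adjusted p = 6.91e-08) and than in DNP (log2 fold change 0.33, adjusted p = 1.07e-04). Fos (gene 314322), the AP-1 subunit c-Fos, was at 13.1, 15.1 and 10.8 FPKM in Ctrl, 36, 32.1 and 32.5 FPKM in DNP and 76.8, 83.2 and 72.2 FPKM in PF. The PF mean of Fos exceeded Ctrl by 314% of the antigen rise (289% to 342% over the 3 PF samples). Fos passed the test against Ctrl (log2 fold change 2.49, SE 0.105, adjusted p = 1.10e-06) and against DNP (log2 fold change 1.18, adjusted p = 1.39e-06).

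Dnaaf2 and Ankrd40 were the other 2 of these genes. Dnaaf2, which encodes a dynein assembly factor, reached 28.9, 33.4 and 33.1 FPKM in PF against 23.2, 25.1 and 24.8 FPKM in DNP and 9.63, 9.95 and 9.42 FPKM in Ctrl, and it was higher than in Ctrl (log2 fold change 1.62, SE 0.0638, adjusted p = 9.65e-07). For Ankrd40 the PF samples were at 7.72, 7.51 and 8.36 FPKM and the Ctrl samples at 2.1, 2.51 and 2.98 FPKM, again a rise over Ctrl (log2 fold change 1.33, SE 0.0988, adjusted p = 1.28e-05), and its difference from DNP did not pass the test (log2 fold change 0.12, adjusted p = 0.198).

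Other early transcription factors kept only a fraction of the rise. Egr3 (gene 25148), a relative of Egr1, went from 2.04, 2.82 and 2.64 FPKM in Ctrl to 42, 47.7 and 45 FPKM in DNP but reached 6.7, 7.58 and 7.28 FPKM in PF. All PF samples were above Ctrl and far below DNP, so that 11.1% of the antigen rise was left. It was higher than Ctrl (log2 fold change 1.23, SE 0.0985, adjusted p = 1.89e-05) and lower than DNP (log2 fold change -2.49, adjusted p = 6.02e-08). Egr2 was listed at 0.12, 0.05 and 0.06 FPKM in Ctrl, 2.5, 2.28 and 2.61 FPKM in DNP and 1.44, 1.3 and 1.33 FPKM in PF, and was higher in PF than in Ctrl (log2 fold change 1.13, SE 0.0946, adjusted p = 2.36e-05). Nr4a2, an orphan nuclear receptor gene, kept 65.5% of its rise, at 15.2, 18.1 and 18.4 FPKM against 5.7, 6.62 and 5.85 FPKM in Ctrl and 23.3, 24 and 22 FPKM in DNP (log2 fold change 1.37, SE 0.0853, adjusted p = 5.39e-06). Atf3, which encodes a stress-responsive bZIP factor, kept 49% at 36.7, 38.8 and 37.5 FPKM in PF, 57.2, 58.7 and 59.1 FPKM in DNP and 17.9, 18 and 17.7 FPKM in Ctrl (log2 fold change 1.04, SE 0.0425, adjusted p = 1.04e-06). For each of these 4 genes the PF samples lay between the Ctrl and DNP samples without touching either.

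Several early genes outside the 29 also rose in PF. Klf2 (gene 306330), a Kruppel-like factor, was at 0.53, 0.32 and 0.46 FPKM in Ctrl, 0.92, 0.59 and 0.46 FPKM in DNP and 7.17, 6.77 and 5.84 FPKM in PF. Ctrl and DNP overlapped, and all PF samples were above both (log2 fold change 2.4, SE 0.0996, adjusted p = 1.04e-06 against Ctrl, log2 fold change 2.2, adjusted p = 1.88e-06 against DNP). Jund (gene 24518), a further AP-1 subunit, was at 216, 245 and 218 FPKM in Ctrl, 296, 304 and 302 FPKM in DNP and 477, 545 and 473 FPKM in PF (log2 fold change 1.13, SE 0.0683, adjusted p = 4.63e-06). Dusp1 (gene 114856), whose product dephosphorylates MAP kinases, was at 41.1, 43 and 35.1 FPKM in Ctrl, 43.6, 38.1 and 43.9 FPKM in DNP and 95.1, 99.7 and 88 FPKM in PF. Its DNP samples overlapped Ctrl, and its PF samples were all higher (log2 fold change 1.23, SE 0.0771, adjusted p = 5.49e-06 against Ctrl, log2 fold change 1.15, adjusted p = 2.17e-06 against DNP). Jun, the main AP-1 partner of Fos, rose less, from 251 ± 3.74 FPKM (SD, n = 3) to 318 ± 10.3 FPKM (SD, n = 3) (log2 fold change 0.34, SE 0.0369, adjusted p = 9.43e-05). Jun had risen as much with antigen alone, at 324, 312 and 326 FPKM in DNP (log2 fold change 0.35, adjusted p = 2.18e-04 against Ctrl). The difference of PF from DNP did not pass the test (log2 fold change -0.01, adjusted p = 0.787).

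Over the list of 29 tested immediate early transcription factors, 18 were higher in PF than Ctrl and 10 were lower, with a median log2 fold change of 0.24, against 23.1% higher, 34.6% lower and a median of -0.05 over all tested genes. Without PF replicate 1 the count was 11 higher and 10 lower of the 26 genes that reached the filter. Without PF replicate 2 or 3 it was 13 or 14 higher of 26. Klf2 and Egr2, which are on the list, reached 1 FPKM in PF but in no Ctrl sample. They were thus tested only through PF and could only be called higher. The largest falls were in Bhlhe40 and Nfatc1. Bhlhe40, a basic helix-loop-helix repressor gene, was at 178, 180.2 and 185 FPKM in Ctrl, 172, 169 and 174 FPKM in DNP and 68.8, 65.5 and 69.1 FPKM in PF (log2 fold change -1.41, SE 0.0377, adjusted p = 1.88e-07). Nfatc1, which encodes a calcium-regulated transcription factor, was at 25.6, 24.1 and 26 FPKM in Ctrl and 10.6, 10.4 and 10.6 FPKM in PF (log2 fold change -1.19, SE 0.0495, adjusted p = 1.04e-06). Myc fell from 44.6 ± 2.78 FPKM (SD, n = 3) to 29.5 ± 1.57 FPKM (SD, n = 3) (log2 fold change -0.58, SE 0.058, adjusted p = 6.16e-05).

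Among secreted factors, little of the antigen rise was left in the type 2 cytokines and Ccl2. Il4 (gene 287287), the type 2 cytokine that promotes IgE class switching, was at 2.47, 2.26 and 2.27 FPKM in Ctrl, 11.8, 12.7 and 12.5 FPKM in DNP and 2.55, 3.71 and 4.22 FPKM in PF. PF replicate 1 lay just above the highest Ctrl sample and the other PF samples were somewhat higher, while all were far under DNP. Il4 was called higher than Ctrl (log2 fold change 0.41, SE 0.135, adjusted p = 0.0283), and this call was lost without Ctrl replicate 2 or 3 or PF replicate 2 or 3, where the adjusted p was between 0.062 and 0.0899, and without the filter on low values (0.0786). Against DNP, Il4 was lower (log2 fold change -1.59, adjusted p = 1.68e-05). Il13, which acts with Il4 in allergic inflammation, was at 4.0, 3.91 and 4.58 FPKM in Ctrl, 11.2, 12.4 and 14.3 FPKM in DNP and 5.19, 5.93 and 5.37 FPKM in PF (log2 fold change 0.33, SE 0.0804, adjusted p = 0.00727). Ccl2 (gene 24770), a monocyte chemoattractant, was at 218, 242 and 212 FPKM in Ctrl, 650.2, 669 and 710.4 FPKM in DNP and 247, 276 and 296 FPKM in PF. All PF samples lay just above Ctrl and at less than the DNP level (log2 fold change 0.28, SE 0.0725, adjusted p = 0.00951 against Ctrl, log2 fold change -1.31, adjusted p = 1.06e-06 against DNP). The shares of the antigen rise left were 11.6% for Il4, 15.7% for Il13 and 10.8% for Ccl2. Over the 3 PF samples they ran from 2.17% to 18.9%, 12.1% to 20.85% and 5.045% to 15.8%. Il4 and Ccl2, but not Il13, increased from PF replicate 1 to 3. That is the order of the 4, 5 and 6 h of stimulation in the field for each sample. Time and replicate cannot be told apart here, and a part of time was not tested.

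Lif and Tnf behaved otherwise. Lif, a cytokine of the interleukin-6 family, was at 122, 110.1 and 103 FPKM in Ctrl, 302, 312 and 308 FPKM in DNP and 222, 239 and 241 FPKM in PF, so 62.5% of the rise was left (log2 fold change 1.06, SE 0.0622, adjusted p = 4.03e-06). Il3, a mast cell growth factor, kept 19.8%, at 6.63, 7.94 and 7.42 FPKM in PF against 4.07, 3.96 and 4.5 FPKM in Ctrl and 17.7, 21.1 and 21.5 FPKM in DNP (log2 fold change 0.68, SE 0.081, adjusted p = 1.52e-04). Tnf, the pro-inflammatory cytokine, was at 7.63, 6.15 and 5.32 FPKM in Ctrl, 9.24, 7.49 and 8.15 FPKM in DNP and 20.7, 15.4 and 15.2 FPKM in PF. Its DNP samples overlapped Ctrl and did not pass the test there (log2 fold change 0.34, adjusted p = 0.0606), whereas PF was above both groups (log2 fold change 1.29, SE 0.14, adjusted p = 9.36e-05 against Ctrl, log2 fold change 0.95, adjusted p = 2.14e-04 against DNP).

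Of 13 tested cytokines and secreted growth factors, 7 were higher and 4 lower in PF than Ctrl (53.8% and 30.8%, beside 23.1% and 34.6% of all tested genes), with a median log2 fold change of 0.33. Without Ctrl replicate 1, 2 or 3, 2 were lower of 11 that reached the filter. Osm, Hbegf and Tnfsf9 were lower by at least 1. Hbegf and Tnfsf9 reached 1 FPKM in every Ctrl sample but in no PF sample, so they could only be called lower. Osm, the oncostatin M gene, was at 112, 123 and 123 FPKM in Ctrl, 126, 128 and 133 FPKM in DNP and 52.8, 58.4 and 59.2 FPKM in PF (log2 fold change -1.06, SE 0.057, adjusted p = 2.64e-06). Hbegf, a ligand of the EGF receptor, fell to 20% and Tnfsf9, a TNF family ligand gene, to 20.9% of the Ctrl mean. Of 4 tested chemokine ligands 2 were higher (1 with equal sums, no filter or no trend, and without Ctrl replicate 1 or 3 or PF replicate 1 or 2), 1 did not pass and 1, the interferon-inducible Cxcl10, was lower, at 1.08, 1.6 and 0.66 FPKM in PF against 3.64, 3.8 and 3.82 FPKM in Ctrl (log2 fold change -1.19, SE 0.149, adjusted p = 2.03e-04).

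The remaining induced genes above Ctrl were inhibitors, kinases or genes of other roles. Plk3, a polo-like kinase gene, was at 25.8, 26.4 and 26.4 FPKM in PF against 17.2, 17.7 and 17.3 FPKM in Ctrl (log2 fold change 0.56, SE 0.0427, adjusted p = 1.43e-05). Dusp6, whose product inactivates ERK, was at 25.4, 27 and 28.7 FPKM against 19, 16.6 and 19.1 FPKM (log2 fold change 0.55, SE 0.0681, adjusted p = 2.06e-04). Fam110a rose by 0.47 and Zfp36l1, which encodes an mRNA decay factor, by 0.24 on the log2 scale (adjusted p = 8.88e-05 and 0.0020). Between 12.9% and 37.9% of the antigen rise was left in these 4 genes.

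A further 6 induced genes did not pass the test against Ctrl. Spry4, an inhibitor of receptor tyrosine kinase signalling, was at 1.57, 1.89 and 1.91 FPKM in Ctrl, 5.31, 5.24 and 5.26 FPKM in DNP and 1.88, 2.0 and 2.29 FPKM in PF. Rabgef1, which encodes a Rab5 exchange factor that dampens IgE receptor signalling, was at 8.42, 9.32 and 9.25 FPKM in Ctrl, 24.2, 23.7 and 25.8 FPKM in DNP and 7.83, 9.2 and 9.2 FPKM in PF. In both, PF and Ctrl overlapped while DNP lay above. Their log2 fold changes against Ctrl were 0.13 and -0.04 (adjusted p = 0.257 and 0.682), and that of Rabgef1 turned to 0.02 with median ratios. Map9 was at 0.07, Ahnak at 0.23 and Zswim4 at -0.23 (adjusted p = 0.373, 0.178 and 0.0547). Against DNP, each of these 5 genes was lower in PF, by log2 fold changes from -1.42 to -1.0. Of these, Zswim4 passed the test as lower with the sums, with all 3 groups in 1 fit, without trend and without Ctrl replicate 1 (adjusted p between 0.0234 and 0.044), and Ahnak as higher without PF replicate 2 (0.0458). LOC103689931 varied between PF replicates, at 23.4, 174 and 65.1 FPKM against 22.7, 25 and 31.3 FPKM in Ctrl (log2 fold change 1.28, SE 0.572, adjusted p = 0.0854). Without PF replicate 1 its log2 fold change was 1.99 and passed (adjusted p = 0.00273).

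Plau, Maff and Tnfrsf12a were pushed above Ctrl by antigen and lay below Ctrl in PF. Plau (gene 25619), which encodes the urokinase plasminogen activator, was at 8.08, 9.6 and 7.45 FPKM in Ctrl, 25.1, 23.5 and 26.5 FPKM in DNP and 4.25, 5.21 and 5.39 FPKM in PF. Every PF sample was under every Ctrl sample, and the PF mean was 59.1% of the Ctrl mean (log2 fold change -0.66, SE 0.106, adjusted p = 9.07e-04 against Ctrl, log2 fold change -2.13, adjusted p = 4.53e-07 against DNP). Maff (gene 366960), a small Maf transcription factor, was at 2.67, 3.2 and 3.0 FPKM in Ctrl, 7.74, 9.76 and 8.01 FPKM in DNP and 2.11, 1.98 and 1.49 FPKM in PF. The 3 groups did not overlap, and PF was the lowest (log2 fold change -0.47, SE 0.106, adjusted p = 0.00509 against Ctrl). Tnfrsf12a (gene 302965), the receptor of TWEAK, was at 12.9, 14.4 and 14.1 FPKM in Ctrl, 42.4, 37.2 and 42.1 FPKM in DNP and 9.53, 13.2 and 10.9 FPKM in PF. PF and Ctrl overlapped by 1 sample (log2 fold change -0.28, SE 0.103, adjusted p = 0.0424). This call was lost without Ctrl replicate 2 or 3, without PF replicate 1 or 3 (adjusted p between 0.0927 and 0.133), with median ratios (0.101), without the filter (0.1) and without trend (0.0589).

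Genes that antigen lowered mostly stayed low. Of the 7 genes lower in DNP than Ctrl by at least 1 (0.0674% of 10392), 5 were lower in PF than Ctrl, 3 of them by at least 1, and 2 did not pass. Over all tested genes 34.6% were lower in PF than Ctrl, and 2.81% by at least 1. The same Ctrl samples served in both comparisons, so these counts are a description too. Cxcr4, the receptor of CXCL12, was at 95.3, 89.6 and 87.3 FPKM in Ctrl, 37, 34.8 and 36.1 FPKM in DNP and 32.9, 30 and 32.7 FPKM in PF. DNP and PF were both far under Ctrl (log2 fold change -1.48, SE 0.0515, adjusted p = 5.91e-07 for PF against Ctrl). Slc26a11, an anion transporter gene, fell further in PF than in DNP, to 0.64, 0.72 and 0.68 FPKM against 1.99, 2.6 and 2.5 FPKM in DNP and 5.65, 5.89 and 5.77 FPKM in Ctrl (log2 fold change -2.01, SE 0.0744, adjusted p = 6.41e-07 against Ctrl, log2 fold change -1.0, adjusted p = 6.57e-05 against DNP). Lrrc51, Ciart, a gene of the circadian clock, and Ddit4, an inhibitor of mTORC1, fell by 1.19, 0.98 and 0.83 on the log2 scale. Ppp1r35 was at 7.73, 7.93 and 2.45 FPKM in PF against 9.67, 8.79 and 9.35 FPKM in Ctrl (log2 fold change -0.67, SE 0.316, adjusted p = 0.10), and it passed as lower without PF replicate 2 (-0.90) or 3 (-0.22). LOC100911840 was at 4.17, 2.47 and 5.86 FPKM against 4.29, 3.35 and 2.52 FPKM (log2 fold change 0.20, SE 0.237, adjusted p = 0.492).

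Beyond the antigen response, the genes that fell the most in PF had varied roles and are described singly. Bet1l (gene 54400), a Golgi SNARE gene, was at 21.4, 23.1 and 23.3 FPKM in Ctrl, 18.3, 18.3 and 17.7 FPKM in DNP and 4.02, 4.22 and 4.33 FPKM in PF (log2 fold change -2.18, SE 0.0589, adjusted p = 1.88e-07). Chac1 (gene 362196), which encodes a glutathione-degrading enzyme induced by ATF4, was at 53.6, 57.1 and 55.3 FPKM in Ctrl and 11.2, 12.5 and 11.4 FPKM in PF (log2 fold change -2.15, SE 0.0527, adjusted p = 1.28e-07). Relb (gene 100360982), an NF-kB subunit of the non-canonical pathway, was at 7.27, 7.41 and 7.16 FPKM in Ctrl, 7.0, 6.93 and 6.45 FPKM in DNP and 0.73, 1.16 and 0.83 FPKM in PF (log2 fold change -2.12, SE 0.0958, adjusted p = 1.35e-06). The PF means were between 12.4% and 21.2% of the Ctrl means, whereas the log2 fold changes of DNP against Ctrl were -0.31, -0.28 and -0.09. The others among the 15 lowest had log2 fold changes from -2.13 to -1.8. They were Zc3h10, a CCCH zinc finger gene, the zinc finger and homeobox genes Adnp2 and Six4, Arid5a, which encodes an RNA-binding protein that stabilizes inflammatory mRNAs, Slc26a11, the STAT5 target Cish, Klhl24, the mTORC1 component Akt1s1, the CENP-A chaperone gene Hjurp, the kinase gene Dyrk3, Tcp11l2 and Giot1. Arid5a had the lowest share of its Ctrl mean, at 8.33%, with 0.47, 0.19 and 0.44 FPKM in PF.

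The 10 genes with the highest log2 fold change held Egr1, Fosb, Fos, Klf2 and Dnaaf2, given above, and also Rhob and 4 histone genes. Rhob (gene 64373), an early-response small GTPase gene, was at 60.4, 62.8 and 63.5 FPKM in Ctrl, 77.8, 72.4 and 76.4 FPKM in DNP and 209, 213 and 189 FPKM in PF (log2 fold change 1.69, SE 0.0508, adjusted p = 3.97e-07 against Ctrl, log2 fold change 1.42, adjusted p = 2.84e-07 against DNP). In DNP against Ctrl its log2 fold change was 0.27 (adjusted p = 0.0018). Hist1h2bh (gene 306945), a histone H2B gene, was at 91.8, 89.2 and 90.9 FPKM in Ctrl, 82, 81.7 and 88.6 FPKM in DNP and 265, 274 and 264 FPKM in PF (log2 fold change 1.55, SE 0.0342, adjusted p = 6.91e-08). Hist1h2bk, Hist1h2ai and Hist1h2aa rose by 1.62, 1.53 and 1.49. Hist1h2aa was low, at 1.96, 5.1 and 2.46 FPKM in PF, and 1 PF sample carried most of its mean.

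**Figure D3:**
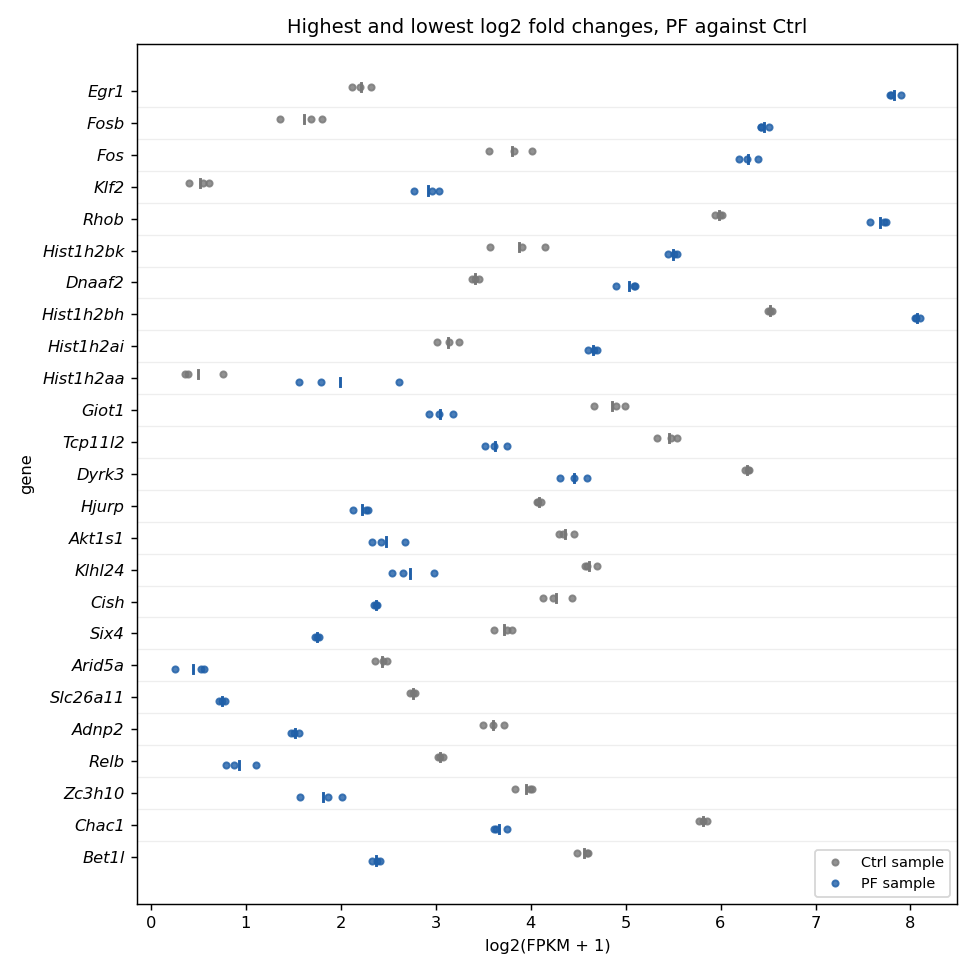
The level in each Ctrl (grey) and PF (blue) sample is plotted as log2(FPKM + 1) on the horizontal axis for the 10 most raised and the 15 most lowered named genes, with a bar at each group mean. The 25 genes were named only if their groups did not overlap, so the PF and Ctrl points are apart by choice, from Egr1 at the top, which rose by 5.61, to Bet1l at the bottom, at -2.18.

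Of 36 tested feedback inhibitors, 12 were higher (33.3%) and 20 lower (55.6%) in PF than Ctrl, beside 23.1% and 34.6% of all tested genes, with a median log2 fold change of -0.36. Among the SOCS family, which blocks JAK-STAT signalling, Cish was at 17.9, 20.6 and 16.5 FPKM in Ctrl and 4.16, 4.11 and 4.21 FPKM in PF (log2 fold change -1.9, SE 0.0808, adjusted p = 1.13e-06). Socs1 was at 17.9, 18 and 16.7 FPKM in Ctrl, 17.3, 16.1 and 19.9 FPKM in DNP and 4.86, 6.87 and 4.41 FPKM in PF (log2 fold change -1.56, SE 0.126, adjusted p = 1.99e-05). Socs3 rose with antigen and lay below Ctrl in PF, at 9.12, 9.37 and 9.81 FPKM in Ctrl, 18.1, 15.5 and 19.5 FPKM in DNP and 4.15, 3.63 and 3.04 FPKM in PF (log2 fold change -1.19, SE 0.0927, adjusted p = 1.69e-05 against Ctrl, log2 fold change -2.02, adjusted p = 1.63e-06 against DNP). In each of them the PF samples were the lowest. The NF-kB genes Nfkbie, which encodes an inhibitor of NF-kB, and Nfkb1, the p105 and p50 subunit, fell by 1.13 and 1.1 on the log2 scale. Nfkb1 was at 45.5, 44.5 and 43.5 FPKM in Ctrl, 49.6, 49.9 and 51.2 FPKM in DNP and 19.1, 20.4 and 21.2 FPKM in PF. Inhibitors that were higher in PF than Ctrl, picked after their values were seen, were Dusp10 (0.88), Tnfaip3, which encodes the ubiquitin editor A20 (0.62), and Dusp5 (0.59).

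Receptors for cytokines and chemoattractants had the largest share of lower genes among the lists examined. Of 27 tested, 20 were lower, 1 was higher and 6 did not pass, with a median log2 fold change of -0.55, against 34.6% lower over all tested genes. Csf2rb, the common beta chain of the receptors for interleukin-3, interleukin-5 and GM-CSF, was at 343, 341 and 339.6 FPKM in Ctrl, 255, 262 and 249 FPKM in DNP and 146, 135 and 147 FPKM in PF (log2 fold change -1.25, SE 0.0407, adjusted p = 4.64e-07). Il10ra, the ligand-binding chain of the interleukin-10 receptor, was at 8.54, 6.94 and 7.26 FPKM in Ctrl, 9.68, 10 and 8.73 FPKM in DNP and 1.56, 2.27 and 2.83 FPKM in PF (log2 fold change -1.43, SE 0.143, adjusted p = 6.21e-05 against Ctrl, log2 fold change -1.72, adjusted p = 1.45e-05 against DNP). Gpr171, a G protein-coupled receptor gene, was at 33.4, 30.3 and 34.3 FPKM in Ctrl and 10.7, 9.41 and 9.35 FPKM in PF (log2 fold change -1.64, SE 0.0696, adjusted p = 1.13e-06). Together with Cxcr4 these were the 4 receptors that fell by at least 1, and their PF means were between 29.3% and 41.8% of the Ctrl means.

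Of 22 tested interferon response genes 13 were lower (59.1%), 2 were higher and 7 did not pass, with a median log2 fold change of -0.27, beside 34.6% lower over all tested genes. The 6 that fell by at least 1 were Socs1, given above, the transcription factors Irf1 and Irf2, the viral RNA sensor Ifih1, the exonuclease gene Isg20 and Cd274, which encodes PD-L1. Irf2 was at 9.65, 10.4 and 9.28 FPKM in Ctrl, 9.83, 10.2 and 9.94 FPKM in DNP and 2.64, 3.03 and 2.89 FPKM in PF (log2 fold change -1.48, SE 0.0725, adjusted p = 1.74e-06). Cd274 was at 146, 136 and 143 FPKM in Ctrl and 68.4, 67.2 and 71.2 FPKM in PF (log2 fold change -1.03, SE 0.0419, adjusted p = 1.04e-06). PF samples of both were under every Ctrl sample.

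The IgE receptor itself was not lower. Fcer1a was at 454, 439 and 432 FPKM in Ctrl and 463, 503 and 479 FPKM in PF (log2 fold change 0.12, SE 0.0419, adjusted p = 0.0314). Ms4a2 was at 442, 417 and 435 FPKM and 469, 474 and 486 FPKM (log2 fold change 0.14, SE 0.0369, adjusted p = 0.0099), and Fcer1g at 702, 729 and 717 FPKM and 824, 813 and 786 FPKM (log2 fold change 0.17, SE 0.0368, adjusted p = 0.00373). The rises of Fcer1a and Ms4a2 did not pass with equal sums (adjusted p = 0.363 and 0.219), and that of Fcer1a also failed with no filter, without trend, and without Ctrl replicate 2 or 3 or PF replicate 2 or 3 (0.059 to 0.102). Of 58 tested genes of the receptor and its proximal signalling, 13 were higher (22.4%) and 24 lower (41.4%), beside 23.1% and 34.6% of all tested genes. The median log2 fold change of -0.06 turned to 0.00 (15 higher, 20 lower) with median ratios. Nfkb1, Orai2, a calcium channel subunit gene, and Prkcd, the protein kinase C delta gene, were the 3 that fell by at least 1. Orai2 was at 20.3, 21 and 22.1 FPKM in Ctrl and 9.43, 9.15 and 8.13 FPKM in PF (log2 fold change -1.16, SE 0.0656, adjusted p = 3.41e-06), and Prkcd at 41.4, 42.9 and 44 FPKM and 20.6, 19 and 20.5 FPKM (log2 fold change -1.06, SE 0.0488, adjusted p = 1.43e-06).

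Of 31 tested mast cell identity and granule genes 18 were lower (58.1%) and 2 higher (6.45%) in PF than Ctrl, beside 34.6% and 23.1% of all tested genes, with a median log2 fold change of -0.25. With median ratios 5 were higher. In DNP against Ctrl, 15 of the 31 were lower and 4 higher (median -0.18), where 14.4% and 14.7% of all tested genes were. Kit, the receptor of stem cell factor, was at 289, 274 and 286 FPKM in Ctrl, 238, 241 and 234 FPKM in DNP and 229, 216 and 238 FPKM in PF (log2 fold change -0.31, SE 0.0453, adjusted p = 4.73e-04 for PF against Ctrl). Antigen alone had lowered Kit too (log2 fold change -0.25, adjusted p = 0.0012 in limma). Its difference between PF and DNP did not pass the test (log2 fold change -0.06, adjusted p = 0.219). The falls of at least 1 were in Gzmb, the granzyme B gene, Mcpt8, a mast cell and basophil protease gene, and Ndst2, a heparin synthesis enzyme gene. Gzmb was at 20, 18.1 and 19.1 FPKM in Ctrl and 6.15, 5.25 and 8.82 FPKM in PF (log2 fold change -1.4, SE 0.144, adjusted p = 7.10e-05), Mcpt8 at 16.4, 18.9 and 20.4 FPKM and 10.4, 4.78 and 7.7 FPKM (log2 fold change -1.23, SE 0.209, adjusted p = 0.00115), and Ndst2 at 13.3, 14.2 and 15.5 FPKM and 5.44, 5.15 and 5.73 FPKM (log2 fold change -1.25, SE 0.0719, adjusted p = 3.72e-06). Mcpt8 has close relatives in the rat genome, so reads may have been shared among copies. Gzmb and Mcpt8 were also lower in DNP than Ctrl, by 0.76 and 0.87 on the log2 scale (adjusted p = 0.00161 and 2.68e-04).

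Survival and stress genes included some of the deeper falls. Of 22 tested BCL2 family and cell death genes, 12 were lower and 3 higher (54.5% and 13.6%, beside 34.6% and 23.1% of all tested genes, median -0.20), led by Birc3, which encodes the inhibitor of apoptosis cIAP2, at 72.5, 70.6 and 70.4 FPKM in Ctrl, 62.4, 59.3 and 59.7 FPKM in DNP and 26.9, 23.2 and 27.5 FPKM in PF (log2 fold change -1.43, SE 0.0624, adjusted p = 1.29e-06). Of 47 heat shock and unfolded protein response genes, 22 were lower and 13 higher (46.8% and 27.7%), and the median of -0.05 turned to 0.02 (19 lower, 21 higher) with median ratios. With the sums 7 were higher. The 5 with falls of at least 1 were Chac1, Xbp1, the transcription factor spliced by IRE1, Trib3, a target of ATF4, Osgin1, an oxidative stress gene, and Txnip, the thioredoxin inhibitor. Xbp1 was at 119, 119 and 120.5 FPKM in Ctrl and 46.2, 48.5 and 49.9 FPKM in PF (log2 fold change -1.29, SE 0.0396, adjusted p = 4.06e-07). Txnip was at 410.2, 416 and 418 FPKM in Ctrl, 224, 229 and 221 FPKM in DNP and 197, 208 and 201 FPKM in PF, and antigen alone had lowered it too, by 0.88 on the log2 scale (log2 fold change -1.03, SE 0.0348, adjusted p = 4.85e-07 against Ctrl, log2 fold change -0.15, adjusted p = 0.0039 against DNP). Of 52 cell cycle and DNA replication genes, 18 were lower and 11 higher (34.6% and 21.2%), about the shares over all tested genes. The list had a median of -0.02 that turned to 0.04 with median ratios (19 higher, against 5 with the sums). Cdkn1b, the p27 cell cycle inhibitor, fell by 1.23 on the log2 scale, from 116 ± 7.89 FPKM (SD, n = 3) to 48.8 ± 2.28 FPKM (SD, n = 3). Of 30 genes for transcription elongation and BET proteins, 13 were lower and 6 higher (43.3% and 20%, median -0.08), and Mepce, the capping enzyme that stabilizes 7SK RNA, fell by 1.43, from 14.8, 13.4 and 11.4 FPKM to 5.13, 3.99 and 3.77 FPKM.

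The lists for protein synthesis and energy metabolism held more higher than lower calls, all of them under 1 on the log2 scale, beside 23.1% higher and 34.6% lower over all tested genes. Of 53 tested gene rows for cytosolic ribosomal proteins 32 were higher and 0 lower in limma (0 lower also at an unadjusted p under 0.05), with a median log2 fold change of 0.17, which became 0.09 with 18 higher with equal sums. Without the filter 17 were higher. Dropping 1 library at a time gave 20 to 35 higher, with 20 without PF replicate 2. Of 46 ribosome biogenesis and MYC target genes 25 were higher and 3 lower (54.3% and 6.52%, median 0.14), and with the sums 14 were higher and 6 lower. Glycolysis and pyruvate genes had 14 higher and 4 lower of 28 (50% and 14.3%, median 0.13), with 9 and 6 under the sums. Gapdh, a glycolytic enzyme often used as a reference gene, was at 2913, 3309.9 and 3074 FPKM in Ctrl and 3927, 3795 and 3723 FPKM in PF (log2 fold change 0.30, SE 0.0547, adjusted p = 0.00167). Actb, the beta-actin gene and another common reference, was at 2177, 2119 and 2086 FPKM and 2387, 2321 and 2293 FPKM (log2 fold change 0.13, SE 0.0395, adjusted p = 0.0185), a call that was lost with the sums (adjusted p = 0.25), without the filter (0.08), and without Ctrl replicate 3 (0.0562) or PF replicate 1 (0.0853). Of 14 lipid mediator synthesis genes 6 were higher (42.9%) and 0 lower in limma (0 lower also at an unadjusted p under 0.05), and with the sums 3 were higher. Ptges2, a prostaglandin E synthase gene, was at 1.32, 1.78 and 1.66 FPKM in Ctrl, 3.37, 4.35 and 3.87 FPKM in DNP and 5.28, 6.56 and 5.93 FPKM in PF (log2 fold change 1.42, SE 0.102, adjusted p = 1.04e-05).

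Exocytosis machinery genes had 9 higher and 7 lower of 29 (31% and 24.1%), beside 23.1% and 34.6% of all tested genes. Their median of 0.03 turned to -0.05 (7 higher, 10 lower) with the sums. Cholesterol synthesis and uptake genes had 10 higher and 5 lower of 30 (33.3% and 16.7%). Their median of 0.01 turned to -0.06 (5 higher, 10 lower) with the sums. With median ratios 3 were lower. Of 7 tested markers of other cell types 2 were higher and 4 lower (28.6% and 57.1%, median -0.17). Only 1 was higher with the sums, under a replicate block, without the filter or trend, and without Ctrl replicate 1 or 2 or any 1 PF replicate. With median ratios 2 were lower. The platelet gene Ppbp was at 23.8, 22 and 20.2 FPKM in Ctrl and 37.4, 38.2 and 37.3 FPKM in PF, whereas the endothelial gene Pecam1 was at 58.7, 61 and 61.8 and 44.7, 48.3 and 43.6 FPKM. The part of these markers in the changes above was not tested.

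**Figure D4:**
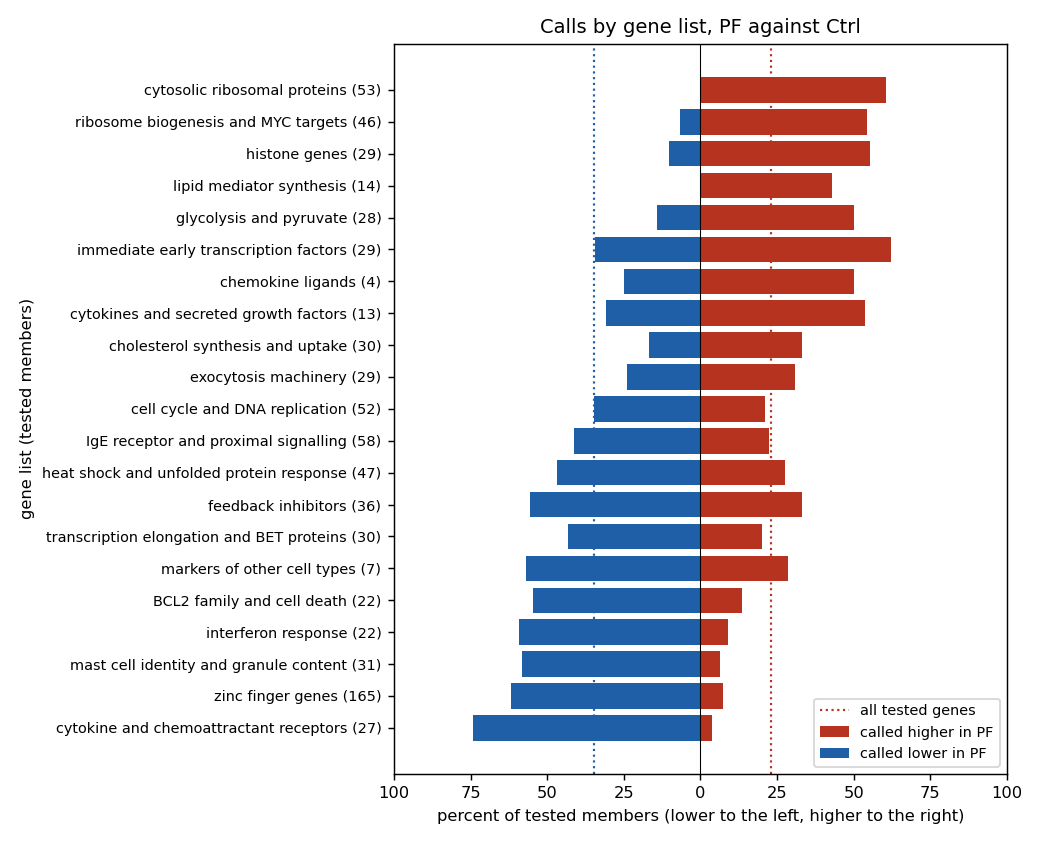
For each gene list, with its number of tested members in brackets, the percent of members called higher in PF than Ctrl extends to the right in red and the percent called lower to the left in blue. Dotted lines mark all tested genes, at 23.1% higher and 34.6% lower; cytosolic ribosomal proteins have 60.4% higher and no lower call, and cytokine and chemoattractant receptors have 74.1% lower.

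Histone genes and numbered Zfp genes were grouped after their values had been seen and are given without a test. Of 34 measured genes whose symbol starts with Hist and a number, 29 were tested. In PF against Ctrl 16 were higher (55.2%, 7 by at least 1) and 3 lower (10.3%), with a median log2 fold change of 0.46. Without PF replicate 1, 2 or 3, 27 histone genes reached the filter and 13, 13 or 17 were higher. Over all genes tested in PF against Ctrl, 23.1% were higher and 34.6% lower. In DNP against Ctrl, 1 of 27 was higher and 2 were lower (median -0.14), beside 14.7% and 14.4% of all genes tested there. Hist1h2bh, Hist1h2bk and Hist1h2ai, coding for core histones, were the most raised, whereas the linker histone gene Hist1h1c fell by 0.33, from 403 ± 12 FPKM (SD, n = 3) to 319.9 ± 16.7 FPKM (SD, n = 3). Many histone genes are near-identical copies among which reads may have been split, so values of single copies are uncertain. Of 256 measured genes named Zfp and a number, 165 were tested. The group encodes mostly zinc finger transcription factors but includes the mRNA decay factors of the Zfp36 family. In PF against Ctrl 102 were lower (61.8%, 11 by at least 1) and 12 higher (7.27%), with a median of -0.34. Beside them, 34.6% and 23.1% of all tested genes were lower and higher. Without PF replicate 1, 7 Zfp genes were higher. The falls ranged up to those of Zfp84 (-1.46) and Zfp458 (-1.44). With median ratios 90 were lower and 15 higher, and with the sums 107 and 9, and the histone counts were 16 higher and 3 lower under both.

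**Figure D5:**
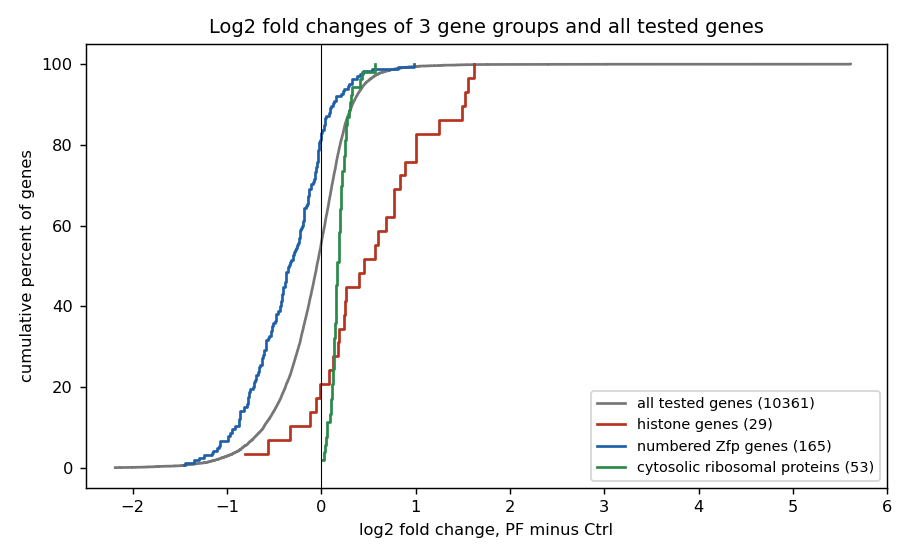
Cumulative curves give the percent of genes, on the vertical axis, with a log2 fold change in PF against Ctrl at or under the value on the horizontal axis, for all 10361 tested genes (grey), 29 histone genes (red), 165 numbered Zfp genes (blue) and 53 ribosomal protein gene rows (green). The Zfp curve lies to the left of all genes with a median of -0.34, the histone curve has the highest median of the 4, at 0.46, and the ribosomal curve is steep and lies wholly above 0 with a median of 0.17.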

How the data were processed

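RNA from 9 RBL-2H3 samples (3 Ctrl, 3 DNP, 3 PF) was extracted with Trizol. The labels name Illumina library protocols and the study's methods a BGISEQ-500 sequencer. The submitters' processing notes and the methods name SOAPnuke for read filtering, HISAT2 2.0.4, Bowtie2 2.2.5 and RSEM 1.2.12, with genome build rn6; the annotation release is not given in the sources used here. The authors deposited 1 value per gene and sample, read here as FPKM because the values have decimals, sum to different totals and the heading names no unit. Since FPKM holds no counts, the count test of the study's methods was not usable, depth in reads is unknown, and precision rests on the 3 samples per group.

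Samples were joined by gene identifier, since genes were listed in 5 orders. Of 38490 rows, 20484 had no value. A gene was tested where 3 or more of the 6 libraries compared reached 1 FPKM. Tests were made on log2(FPKM + 1) by limma (version 3.58.1, R 4.3.3), using lmFit followed by eBayes with its trend option. The p-values were adjusted by Benjamini-Hochberg with 0.05 as the limit. The code was also run on simulated data with few changed genes and independent normal noise. That setting differs from the broad changes found here, so the run checks only the code. PF was compared with Ctrl, and DNP with Ctrl and PF with DNP only to define and test the antigen response. The comparisons share samples.

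The genes named are the 10 highest and 15 lowest log2 fold changes past 1 whose groups do not overlap and whose higher group averages at least 1 FPKM, without LOC, RGD or AABR symbols, all antigen-induced and antigen-lowered genes, list members past 1, and the defining genes of the lists. The samples, the 19 gene lists and the tests were chosen with earlier results of these data known, and the histone and Zfp groups after their values were seen. Same-numbered PF and Ctrl samples correlated at 0.0908, 0.189 and 0.083 in their deviations from the group means, so the numbers were not taken as pairs. Promoter windows are from RefSeq on GRCr8, which is a different build from that of the values, and were matched by gene identifier.

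The settings varied were the pseudocount (0.1), the filter (none), the scaling (median ratios, or equal sums at the mean deposited total), the samples (all 3 groups in 1 fit, or 1 left out at a time), a replicate block, the threshold (0.01) and the trend (none).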

Additional observations from a re-analysis of the deposited data

Results flagged for a closer look

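Of 10200 genes tested in every comparison, 212 were higher in DNP than Ctrl, lower in PF than the same Ctrl samples and also lower in PF than DNP. Another 31 met the same conditions the other way round. Passing the test of PF against DNP was part of the selection, so it adds nothing to these counts. Among the named genes with a log2 fold change of at least 1 in either comparison with Ctrl, 6 were higher in DNP and lower in PF under these conditions. The log2 fold changes of PF against DNP were -2.13 for Plau, -2.02 for Socs3, -1.77 for Tnfrsf12a, -1.73 for Maff, -1.72 for Il10ra and -1.27 for Nfkb1. Of these, Plau encodes the urokinase plasminogen activator, Socs3 a cytokine signalling inhibitor, Tnfrsf12a and Il10ra receptors, and Maff and Nfkb1 transcription factors. The call of Tnfrsf12a below Ctrl was lost under several settings, which are given with its values above.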

How the results depend on the processing

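Counts of calls in PF against Ctrl were mostly stable to the settings tried, and those with a fold change minimum depended on the pseudocount. With a pseudocount of 0.1, 98 genes rose and 526 fell by at least 1 in PF against Ctrl, and 57 rose and 12 fell in DNP against Ctrl, so that 38 induced genes were above Ctrl in PF and, of the lowered genes, 10 were below, 2 above and 0 in neither class. The 2 lowered genes that did not pass became 0 with no filter, a threshold of 0.01 or no trend, and 1 with all 3 groups in 1 fit or with the sums. Scaling to equal sums left 1575 genes higher in PF than Ctrl and 123 list members higher, against 188. The share of higher genes among those called was 51.1% with median ratios and 26.7% with the sums. Rabgef1 turned to 0.02 with median ratios and ranged from -0.08 to 0.03 with 1 sample left out, turning without PF replicate 1, and LOC100911840 ranged from -0.03 to 0.46, turning without PF replicate 3.

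With each sample left out in turn, PF against Ctrl gave between 1979 and 2230 higher and between 3123 and 3422 lower genes, and with the minimum between 42 and 62 higher and between 256 and 304 lower. Induced genes above Ctrl numbered 16 to 20 and below Ctrl 2 to 4, lowered genes above Ctrl 0 to 1, below Ctrl 4 to 7 and in neither class 0 to 3.

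Under a replicate block 2436 genes were higher and 3573 lower in PF than Ctrl, 60 and 294 with the minimum. The pairing moved 1 printed count by over 1.5 times, that of markers of other cell types higher in PF (from 2 to 1), and LOC103689931 passed under it (adjusted p = 0.046). Of the values of 96 named genes under these settings, 1283 kept their direction and side of the threshold, 28 in 5 genes lost the call, 9 in 4 genes gained it and 3 in 2 genes turned. With no read counts, counting error could not be computed.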

Other observations

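These genes were picked from the gene lists after their values were seen, and each passed limma's test in PF against Ctrl. Among chromatin and elongation factors, Brd2, which encodes a BET protein that binds acetylated histones, was at 36.7, 36.6 and 31.6 FPKM in Ctrl and 56.7, 62.3 and 50.4 FPKM in PF (log2 fold change 0.67, SE 0.0843, adjusted p = 2.12e-04), and its relative Brd3 was higher too (log2 fold change 0.39, SE 0.102, adjusted p = 0.0104). Hexim1, whose product holds the elongation factor P-TEFb inactive, was at 20.2, 22.2 and 20.8 FPKM in Ctrl and 13.7, 14.2 and 12.6 FPKM in PF (log2 fold change -0.61, SE 0.0616, adjusted p = 6.71e-05), and Crebbp, a histone acetyltransferase gene, at 8.28, 8.99 and 8.89 and 5.39, 4.84 and 5.94 FPKM (log2 fold change -0.61, SE 0.078, adjusted p = 2.42e-04). Brd2 thus lay above Ctrl in every PF sample, while Hexim1 and Crebbp lay below in every one. Mcl1 and Bcl2l1, anti-apoptotic members of the BCL2 family, were at 97, 98.7 and 109 FPKM and 16.8, 16.2 and 17.8 FPKM in PF, against 179.9, 167 and 164 FPKM and 32.1, 33.2 and 35 FPKM in Ctrl (log2 fold change -0.74, SE 0.0556, adjusted p = 1.39e-05 for Mcl1 and log2 fold change -0.94, SE 0.0534, adjusted p = 3.41e-06 for Bcl2l1).

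Cell cycle genes moved in both directions. The G1 cyclin gene Ccnd1 was at 1.52, 1.38 and 1.06 FPKM in Ctrl and 2.26, 2.68 and 2.49 FPKM in PF (log2 fold change 0.59, SE 0.103, adjusted p = 0.00137), whereas the mitotic kinase gene Plk1 was at 36.6, 38.4 and 40.5 FPKM and 18.8, 19.6 and 20 FPKM (log2 fold change -0.95, SE 0.0508, adjusted p = 2.57e-06). The unfolded protein response showed a like split, since the chaperone gene Hspa5, which encodes BiP, was at 675, 637 and 634 FPKM in Ctrl and 811, 818 and 788 FPKM in PF (log2 fold change 0.31, SE 0.0394, adjusted p = 2.18e-04), and Ddit3, which encodes CHOP, was at 145, 152 and 149.6 FPKM and 80.6, 89.5 and 85.3 FPKM (log2 fold change -0.80, SE 0.046, adjusted p = 3.72e-06). Nqo1, an NRF2 target, was higher (log2 fold change 0.68, SE 0.0329, adjusted p = 1.68e-06). In the IgE receptor pathway, Lat, the adaptor downstream of Syk, was higher (log2 fold change 0.29, SE 0.058, adjusted p = 0.00255) while Syk and Gab2, a further adaptor gene, were lower (log2 fold change -0.34, SE 0.072, adjusted p = 0.00353 for Syk and log2 fold change -0.89, SE 0.0661, adjusted p = 1.32e-05 for Gab2).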
